A study of Sus scrofa with 3 samples.

Results

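miR-126, miR-221 and miR-222 are microRNAs known from blood vessel endothelium, and their levels, arms and end variants were described in pig liver at 3 ages. The members were the reads that the deposited tables assign to named hairpins of these 3 miRNAs, summed for each arm. The 3 hairpins gave 6 arms of the 991 miRNA arms with a read, and 5 of the 6 were among the 325 arms with a mean of 10 counts per 1000000 miRNA reads (CPM) or more. Small RNA was sequenced from liver of male pigs of the Jinhua breed at embryonic day 90 (E90), postnatal day 30 (P30d) and postnatal year 7 (P7y), with no treatment or genetic change named. The labels name 3 pigs and give 1 library for each stage, and do not say whether RNA was pooled. No difference given here therefore has a replicate check or a p-value. All intervals are exact 95% intervals that cover counting error only, and PCR copies of one molecule are counted as separate reads.

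A miRNA hairpin is cut into a duplex, and the strand from its 5′ side (5p) or its 3′ side (3p) is loaded into Argonaute, where bases 2 to 8 of the strand, the seed, pair with target mRNAs. miR-126 is transcribed from within EGFL7, an endothelial gene. In mouse and zebrafish its 3p arm represses Spred1 and Pik3r2 and so sustains signalling by vascular endothelial growth factor, and in mouse its 5p arm represses Dlk1 in endothelial cells. miR-221 and miR-222 come from one cluster on the X chromosome and share a seed. In human cells they repress CDKN1B, which restrains the cell cycle, and KIT, a receptor of stem cell factor, and they are made by endothelial cells, vascular smooth muscle and many dividing cells.

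The mature sequences show which arms can share targets. They are the miRBase entries in the deposited tables, written as DNA from 5′ to 3′, with the seed in capitals. The miR-222-5p entry is the human one, and it occurs unaltered in the pig hairpin.
miR-126-5p: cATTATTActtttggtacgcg
miR-126-3p: tCGTACCGtgagtaataatgcg
miR-221-5p: aCCTGGCAtacaatgtagatttctgt
miR-222-5p: cTCAGTAGccagtgtagatcct
miR-221-3p: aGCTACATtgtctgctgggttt
miR-222-3p: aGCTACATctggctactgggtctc
miR-221-3p and miR-222-3p had the same first 8 bases, so both carry the seed GCTACAT. Aligned with gaps allowed, they had 19 identical bases, where the shorter sequence has 22. Their 5p arms did not share a seed and had 17 identical bases by the same count, the shorter again of 22. The pair miR-126-3p and miR-221-3p, without a common seed, had 11 by this count. By the most frequent read of each arm, no arm among the 325 other than these 3p partners shared a seed with any member.

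The hairpins show how each pair of arms is placed, here with the mature arms in capitals. Coordinates are those of the deposited tables on Sscrofa10.2. Chromosome numbers were read from other pig hairpins on the same sequence, of which 17 of 17 lie on chromosome 1 and 26 of 26 on chromosome X in RefSeq.
miR-126, chr1:313734663-313734745, plus strand: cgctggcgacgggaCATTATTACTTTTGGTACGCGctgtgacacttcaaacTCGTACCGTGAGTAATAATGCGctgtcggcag
miR-221, chrX:45274858-45274958, minus strand: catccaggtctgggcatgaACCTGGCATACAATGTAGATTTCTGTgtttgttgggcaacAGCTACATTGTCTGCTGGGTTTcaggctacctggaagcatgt
miR-222, chrX:45275598-45275711, minus strand: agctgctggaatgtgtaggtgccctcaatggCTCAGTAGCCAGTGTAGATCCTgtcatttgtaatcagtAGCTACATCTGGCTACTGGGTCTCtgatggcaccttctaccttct
The miR-221 and miR-222 hairpins are separated by 639 bases on the same strand. MIR126 lies within the span of EGFL7 in the RefSeq annotation of Sscrofa11.1, and whether it is exonic or intronic there was not analysed here. Almost all reads of these miRNAs came from the pig hairpins. Rows of miR-126 hairpins of other mammals added 14.7 reads to the E90 library, 4 to the P30d library and 38 to the P7y library, and miR-221 and miR-222 had no such rows.

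Named miRNAs had 9243601 reads in the E90 library, 3622993 in the P30d library and 9920207 in the P7y library, and the members took 1.82%, 1.47% and 1.42% of them. More than one scaling was compared because the P7y library stood apart from the others. Its median arm lay 1.34 below P30d and 1.09 below E90 on the log2 scale of CPM, while the median arm of P30d lay 0.11 below E90. Scaling by trimmed means of M values (TMM) raised P7y by 1.07 against P30d and by 1.01 against E90, and median-of-ratios size factors raised it by 1.02 and 1.05. Log2 ratios below are of CPM, later over earlier stage, and a relative log2 ratio has the median of the 325 arms subtracted. An arm was called higher or lower where its log2 ratio was at least 1 in size and its interval excluded 0.

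miR-126-3p, the arm known for sustaining vascular growth factor signalling, was the most abundant member in every library. It had 11832 CPM at E90 (interval 11762 to 11902), 7426 CPM at P30d (7337 to 7515) and 10951.5 CPM at P7y (10886.5 to 11016.8), which placed it 19th, 24th and 17th among all arms by level. Its level was lowest at P30d, and the intervals of the 3 libraries did not overlap.

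miR-126-5p had 1465 CPM at E90 (interval 1440 to 1490), 4458 CPM at P30d (4389 to 4527) and 2616 CPM at P7y (2585 to 2648). By CPM it was highest at P30d, where its partner arm was lowest, but by TMM and by median-of-ratios size factors it was higher at P7y than at P30d (log2 ratios of 0.31 and 0.25). It ranked 62nd, 33rd and 32nd in the 3 libraries. The sum of both miR-126 arms was nearly level, at 13296.9 CPM at E90, 11883.5 CPM at P30d and 13567.8 CPM at P7y. The log2 ratio of this sum was -0.16 for P30d over E90, 0.19 for P7y over P30d and 0.03 for P7y over E90, before any correction for the lower median of the P7y library.

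miR-221-3p, which carries the seed shared with miR-222-3p, stood at 3567 CPM at E90 (interval 3528 to 3605), 1489 CPM at P30d (1450 to 1529) and 394 CPM at P7y (382 to 406). Each later library was lower than the one before it, with no overlap of intervals. miR-221-5p followed the same order by CPM at lower levels, though its P7y and P30d libraries were nearly level under the other scalings (0.081 by TMM and 0.024 by median-of-ratios size factors), with 817 CPM at E90 (799 to 836), 447 CPM at P30d (426 to 470) and 225 CPM at P7y (216 to 234).

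miR-222-3p did not follow its cluster partner. It had 466 CPM at E90 (interval 452 to 480), 855 CPM at P30d (825 to 885) and 33.1 CPM at P7y (29.6 to 36.8), so that the P30d library was the highest and the P7y library the lowest. miR-222-5p, the rare strand of this hairpin, had 44, 11 and 11 reads at E90, P30d and P7y, which is 4.76 CPM (3.46 to 6.39), 3.04 CPM (1.52 to 5.43) and 1.11 CPM (0.554 to 1.98). Its P30d interval overlapped those of both other stages, and it fell under the minimum mean of 10 CPM.

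By mean CPM over the 3 libraries the members were ordered miR-126-3p (10069.8), miR-126-5p (2846), miR-221-3p (1817), miR-221-5p (497), miR-222-3p (451) and miR-222-5p (2.97). Neighbours in this order changed places between stages. miR-221-3p was above miR-126-5p at E90 and below it at P30d and P7y, and miR-222-3p was above miR-221-5p at P30d and below it at E90 and P7y.

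**Figure D1:**
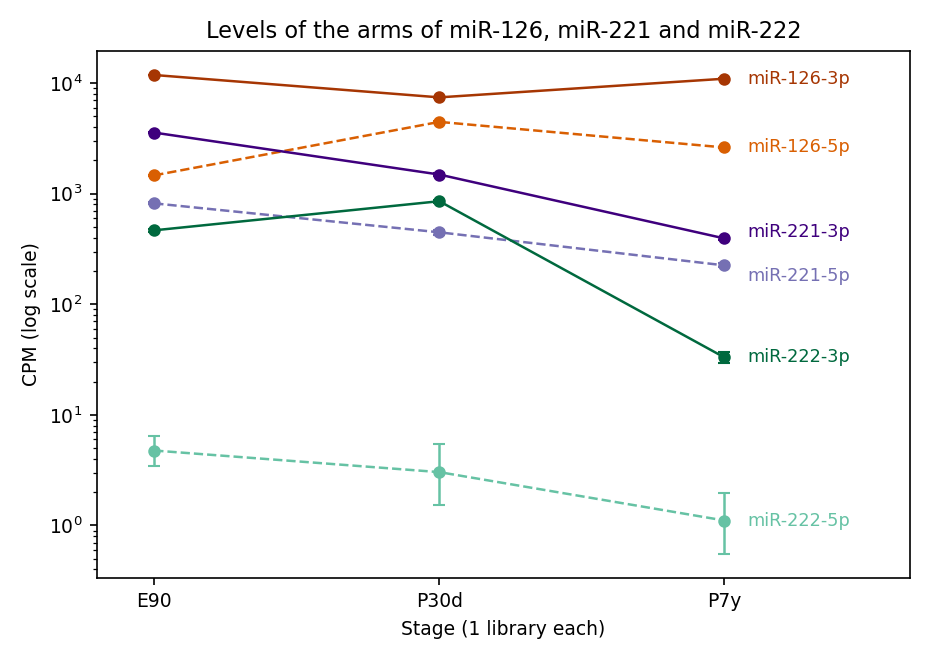
Level of each arm in CPM (log axis) at E90, P30d and P7y, with 1 library per stage; solid lines are 3p arms, dashed lines 5p arms, and error bars exact 95% Poisson intervals. The miR-126 arms approach each other at P30d (7426 and 4458 CPM), and miR-222-3p drops below miR-221-5p at P7y (33.1 and 225 CPM).

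The P30d and E90 libraries set liver after birth against liver of late gestation. Of the 5 arms past the filter, 1 was called higher, against 33.2% of the 325 arms, and 1 was called lower, against 34.8%. miR-126-5p was the higher one, with 4458 CPM at P30d and 1465 CPM at E90, a log2 ratio of 1.61 (interval 1.57 to 1.64) that exceeded those of 75.4% of the arms. miR-221-3p was the lower one, with 1489 CPM at P30d and 3567 CPM at E90, a log2 ratio of -1.26 (-1.30 to -1.22). The other 3 were not called. miR-126-3p had a log2 ratio of -0.67 (-0.69 to -0.65), miR-221-5p of -0.87 (-0.95 to -0.79) and miR-222-3p of 0.87 (0.81 to 0.94). The median of the 5 was -0.67, beside -0.11 over the 325 arms. These directions were the same under each scaling. miR-222-5p, below the filter, had a log2 ratio of -0.65 whose interval (-1.75 to 0.33) included 0.

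The P7y and P30d libraries set mature against young liver. None of the 5 arms was called higher, against 13.8% of the 325, and 2 were called lower, against 55.4%. Over all arms 45 were called higher and 180 lower by CPM, against 92 and 109 by TMM and 91 and 112 by median-of-ratios size factors. miR-222-3p had 33.1 CPM at P7y and 855 CPM at P30d, 25.9-fold lower, with a log2 ratio of -4.69 (interval -4.86 to -4.53) and a relative log2 ratio of -3.35. Of the 325 arms, 6.46% had a lower ratio, and miR-222-3p was called lower under every scaling. miR-221-3p had 394 CPM at P7y and 1489 CPM at P30d, a log2 ratio of -1.92 (-1.98 to -1.86), but a relative log2 ratio of only -0.58. It was no longer called by TMM (-0.84) or by median-of-ratios size factors (-0.90).

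The other 3 arms past the filter lay above the median ratio of this pair. miR-126-3p had a log2 ratio of 0.56 (interval 0.54 to 0.58) for P7y over P30d and a relative log2 ratio of 1.90, above 80.9% of the arms, and it was called higher by TMM (1.63) and by median-of-ratios size factors (1.58). miR-126-5p had a log2 ratio of -0.77 (-0.80 to -0.74) by CPM, which turned to 0.31 by TMM and 0.25 by median-of-ratios size factors. miR-221-5p had a log2 ratio of -0.99 (-1.09 to -0.90) by CPM, just short of a call, which turned to 0.081 and 0.024 by the same scalings. The direction of these 2 arms between P30d and P7y thus depended on the scaling. miR-222-5p was called lower by CPM on 11 reads in each library (-1.45, -2.80 to -0.11) and was not called by TMM (-0.38) or by median-of-ratios size factors (-0.44).

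The P7y and E90 libraries span the whole period. None of the 5 arms was called higher, against 12.6% of the 325, and 3 were called lower, against 51.1%. Over all arms 41 were called higher and 166 lower by CPM, against 90 and 109 by TMM and 91 and 109 by median-of-ratios size factors. miR-221-3p had 394 CPM at P7y and 3567 CPM at E90, 9.05-fold lower, with a log2 ratio of -3.18 (interval -3.23 to -3.13) and a relative log2 ratio of -2.09. miR-222-3p had 33.1 CPM at P7y and 466 CPM at E90, 14.1-fold lower, with a log2 ratio of -3.82 (-3.98 to -3.66) and a relative log2 ratio of -2.73. Both were called lower under every scaling run.

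miR-221-5p was the third arm called lower at P7y than at E90, at 225 CPM against 817 CPM, with a log2 ratio of -1.86 (interval -1.93 to -1.79). It lost the call by TMM (-0.85) and by median-of-ratios size factors (-0.81). miR-126-5p had a log2 ratio of 0.84 (0.81 to 0.87) and was not called by CPM, but was called higher by TMM (1.85), by median-of-ratios size factors (1.89) and with the 5 most abundant arms of any library left out of the total (1.16). miR-126-3p had a log2 ratio of -0.11 (-0.12 to -0.10) by CPM, and turned to 0.90, 0.94 and 0.21 under these 3 scalings. miR-222-5p, on 11 reads at P7y and 44 at E90, had a log2 ratio of -2.10 (-3.20 to -1.13).

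The seed GCTACAT was carried at 4033 CPM at E90, 2344 CPM at P30d and 427 CPM at P7y when miR-221-3p and miR-222-3p were summed. The log2 ratio of this sum was -0.78 (interval -0.82 to -0.75) for P30d over E90, -2.46 (-2.51 to -2.40) for P7y over P30d and -3.24 (-3.29 to -3.19) for P7y over E90. At P30d the higher miR-222-3p made up part of the lower miR-221-3p in this sum, and at P7y both were lower.

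**Figure D2:**
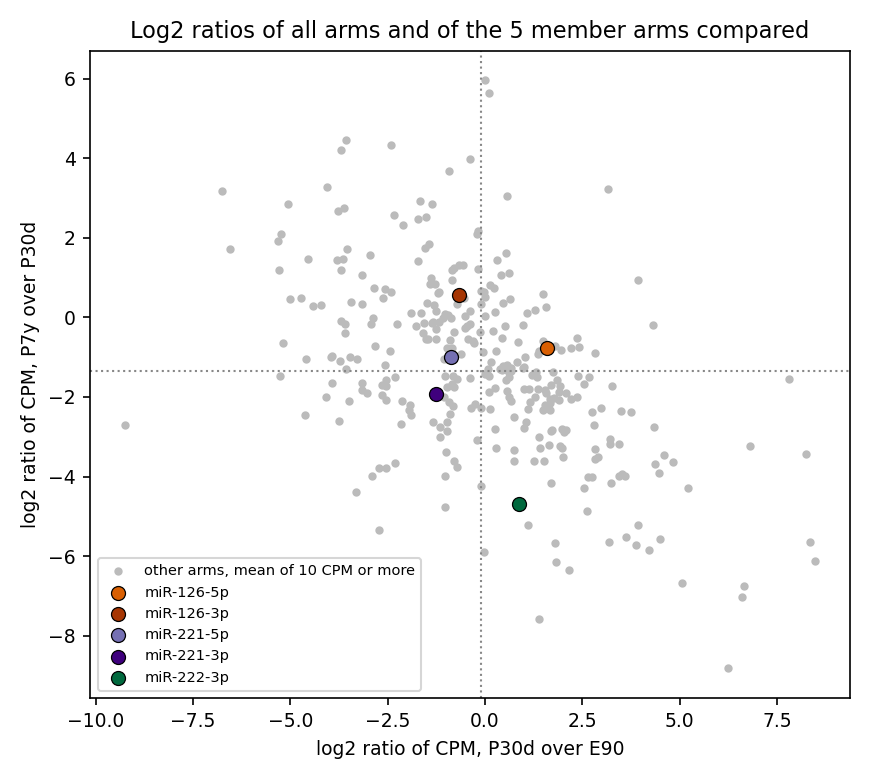
Log2 ratio of CPM for P30d over E90 (horizontal) and for P7y over P30d (vertical) of the 5 arms past the filter, in colour, among the other arms with a mean of 10 CPM or more, in grey; dotted lines mark the medians of all 325 arms (-0.11 and -1.34). miR-222-3p lies far below the horizontal line (-4.69), and miR-126-3p (0.56) lies above it.

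Ratios between reads of one library do not depend on the scaling between libraries. The balance of the miR-126 arms differed between all 3 libraries. The 5p arm took 11.0% of the miR-126 reads at E90 (interval 10.8 to 11.2), 37.5% of them at P30d (37.1 to 38.0) and 19.3% of them at P7y (19.1 to 19.5). The 3p arm was in the majority in every library, at 8.08 times the 5p reads at E90, 1.67 times at P30d and 4.19 times at P7y.

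The log2 odds ratio of miR-126-5p to miR-126-3p was 2.28 (interval 2.24 to 2.32) for P30d over E90, -1.33 (-1.36 to -1.29) for P7y over P30d and 0.95 (0.92 to 0.98) for P7y over E90. The balance of arms also moved in many other hairpins. Of 178 hairpins with 50 or more reads per library, 24.2% moved towards 5p by 2-fold or more from E90 to P30d, as miR-126 did, and the change of miR-126 exceeded those of 152. For P7y over P30d, 36.0% moved towards 3p by as much, as miR-126 did. For P7y over E90, where 24.2% moved towards 5p by as much, miR-126 stayed under 2-fold. The median absolute change over the hairpins was 1.90, 2.05 and 1.21 in these 3 pairs. The minimum of 50 reads was for both arms together, so a hairpin could enter with few or no reads on its rarer arm. The balance of such a hairpin rests on those few reads and on the small count added to each arm. One was miR-100, with log2 balances of 14.8 at E90, 12.1 at P30d and 19.8 at P7y. How common changes of this size are among hairpins with many reads on both arms, as in miR-126, was not tested.

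miR-221 moved towards 5p at each step. Its 5p arm held 18.6% of the miR-221 reads at E90 (interval 18.3 to 19.0), 23.1% of them at P30d (22.1 to 24.1) and 36.3% of them at P7y (35.1 to 37.5). The log2 odds ratio was 0.39 (0.30 to 0.48) for P30d over E90, 0.93 (0.81 to 1.04) for P7y over P30d and 1.32 (1.23 to 1.40) for P7y over E90. For P7y over P30d, 42.1% of the 178 hairpins moved towards 5p by 2-fold or more, and miR-221 stayed just under 2-fold. For P7y over E90 it moved towards 5p by over 2-fold, as 24.2% did, and its change exceeded those of 142 hairpins. miR-222-5p was rare throughout, at 1.01% of the miR-222 reads at E90 (0.735 to 1.35), 0.354% of them at P30d (0.177 to 0.632) and 3.24% of them at P7y (1.63 to 5.73), and its shares at P30d and P7y rest on 11 reads each. Its log2 odds ratio was -1.52 (-2.63 to -0.54) for P30d over E90, 3.24 (1.88 to 4.60) for P7y over P30d and 1.72 (0.60 to 2.71) for P7y over E90. The last 2 are larger in size than those of miR-126 for the same pairs, but the interval for P7y over E90 includes the miR-126 value of 0.95.

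**Figure D3:**
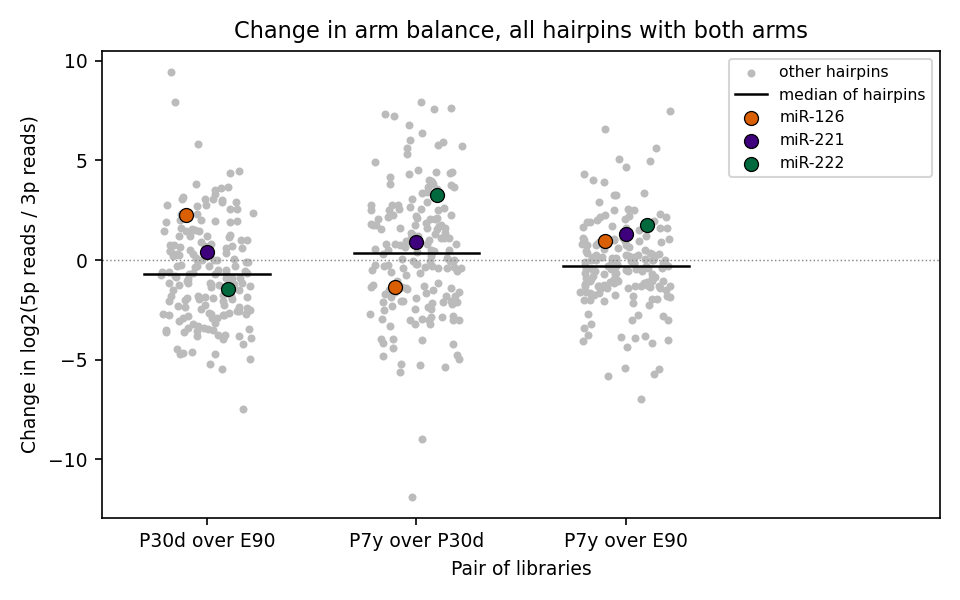
Change in log2 of 5p over 3p reads for 178 hairpins in each pair of libraries, as points spread sideways for legibility, with miR-126, miR-221 and miR-222 in colour and the median of all hairpins as a black line. The miR-126 point is at 2.28 for P30d over E90 and at -1.33 for P7y over P30d, inside the range of the other hairpins. That range includes hairpins with few or no reads on the rarer arm.

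The cluster partners miR-221-3p and miR-222-3p also changed in ratio. miR-221-3p had 7.65 times the reads of miR-222-3p at E90, 1.74 times at P30d and 11.9 times at P7y. Its share of their joint reads was highest at P7y with 92.3% (interval 91.4 to 93.0), next at E90 with 88.4% (88.1 to 88.8) and lowest at P30d with 63.5% (62.5 to 64.6). The log2 odds ratio was -2.13 (-2.21 to -2.06) for P30d over E90, 2.77 (2.60 to 2.95) for P7y over P30d and 0.64 (0.47 to 0.81) for P7y over E90. The P30d library was the one in which the partners were closest.

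Such gaps were not rare among neighbouring hairpins. The same difference was taken for 54 pairs of neighbouring hairpins within 10 kb of each other, by the most abundant arm of each. Neighbours were taken by position alone, and whether they share a transcript was not tested. An arm of several hairpins, such as miR-16-5p, entered with its sum. The larger differences include miR-6087-3p with miR-716a-3p (5.25 for P30d over E90, 5.53 for P7y over P30d). They also include miR-29b-3p with miR-29d-3p (6.82 for P7y over P30d), where miR-29d-3p had 0 CPM at P30d. For P30d over E90 the median absolute difference in log2 ratio between neighbours was 1.30, against 2.13 for miR-221-3p and miR-222-3p, and 15 pairs differed by more. For P7y over P30d the median was 1.83, against 2.77, and 16 pairs differed by more. For P7y over E90 the median was 0.91, against 0.64, and 37 pairs differed by more.

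**Figure D4:**
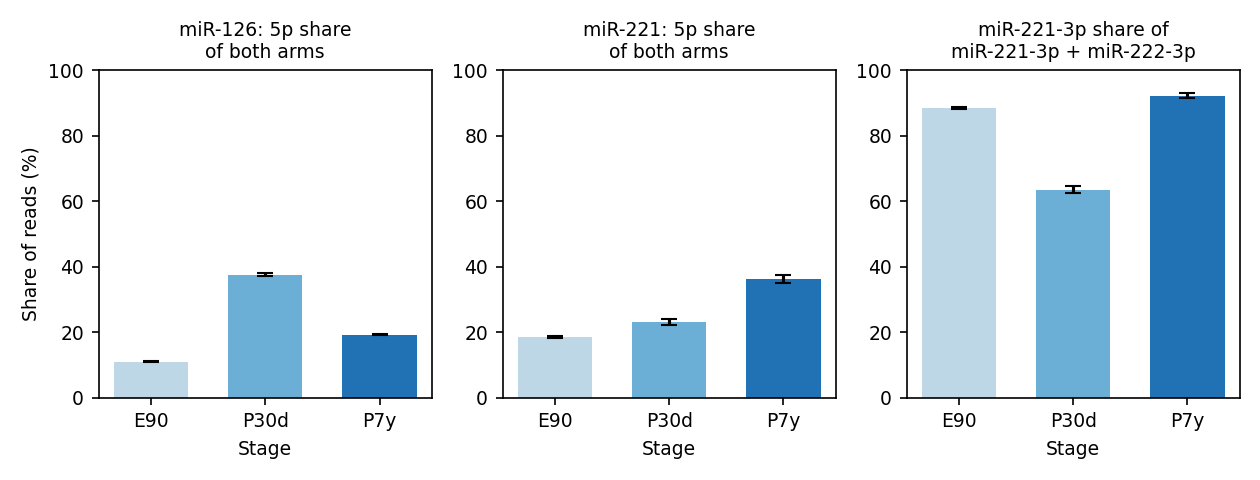
Share of reads (%) held by the 5p arm of miR-126, by the 5p arm of miR-221, and by miR-221-3p among the reads of miR-221-3p and miR-222-3p, at E90, P30d and P7y; bars are 1 library each and error bars exact 95% Clopper-Pearson intervals. The P30d bar is the highest for miR-126 (37.5%) and the lowest for miR-221-3p (63.5%), and the miR-221 5p share is highest at P7y (36.3%).

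Each table gives the most frequent read of an arm, which shows where the ends lie. The starts of miR-126-5p, miR-126-3p, miR-221-5p, miR-221-3p and miR-222-3p were the same base in all 3 libraries, so the seeds printed above hold at each stage. The most frequent read of miR-126-3p ended 1 base before the miRBase entry in every library and had 40738 copies at E90, 9897 copies at P30d and 34920 copies at P7y, which is 37.3%, 36.8% and 32.2% of the arm. The 3′ ends of the other arms differed between stages. These reads show where.
miR-126-5p, E90 and P30d: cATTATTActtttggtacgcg
miR-126-5p, P7y: cATTATTActtttggtacgcga
miR-126-3p, E90, P30d and P7y: tCGTACCGtgagtaataatgc
miR-221-3p, E90 and P7y: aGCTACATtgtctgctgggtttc
miR-221-3p, P30d: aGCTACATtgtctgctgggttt
miR-222-3p, E90 and P7y: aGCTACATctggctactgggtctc
miR-222-3p, P30d: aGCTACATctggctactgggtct
Capitals again mark the seed, bases 2 to 8.

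The most frequent miR-126-5p read at P7y was 22 nt long with a last base that is not in the hairpin, the difference C22A (hairpin base first, counted from the 5′ end of the read). It had 12677 copies, 48.8% of the arm, and made up 93.1% of the miR-126-5p reads with a mismatch in that library. At E90 and P30d the most frequent read was the 21 nt form without a mismatch, with 7158 and 11606 copies, 52.9% and 71.9% of the arm.

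The most frequent reads of miR-221-3p and miR-222-3p were 1 base shorter at P30d than at both other stages. For miR-221-3p they had 23 nt at E90 (49.6% of the arm), 22 nt at P30d (44.9%) and 23 nt at P7y (32.2%). For miR-222-3p they had 24 nt at E90 (39.4%), 23 nt at P30d (50.7%) and 24 nt at P7y (43.3%). Of 205 arms with at least 100 reads in each library, 24 (11.7%) had their shortest most frequent read at P30d in this way, and 119 (58.0%) had one length in all 3 libraries. miR-221-5p had 22 nt at E90 and P30d and 21 nt at P7y. miR-222-5p started 2 bases earlier at P30d and P7y than at E90, which would shift its seed, on 6 copies in each of the later libraries and 16 at E90.

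Reads with a mismatch to the hairpin took 39.9% of miR-126-5p at E90, 20.8% of it at P30d and 52.4% of it at P7y. The background medians over the 205 arms were 12.2%, 14.4% and 16.2%, and 178, 124 and 180 of these arms had a lower share than miR-126-5p. Of miR-221-3p they took 17.5% at E90, 28.3% of it at P30d and 43.9% of it at P7y, above 128, 151 and 175 of the arms. miR-222-3p had 17.5%, 13.0% and 26.2%, and miR-126-3p 15.8%, 19.9% and 22.8% at these stages. miR-221-5p had few such reads, at 4.08%, 5.55% and 2.74%. In reads without a mismatch the miR-126-5p arm was called lower at P7y than at P30d by CPM, with a log2 ratio of -1.37. This was near the median of -1.29 over the 296 arms past the filter in such reads, of which 164 were called lower. Other scalings were not applied to these reads.

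**Figure D5:**
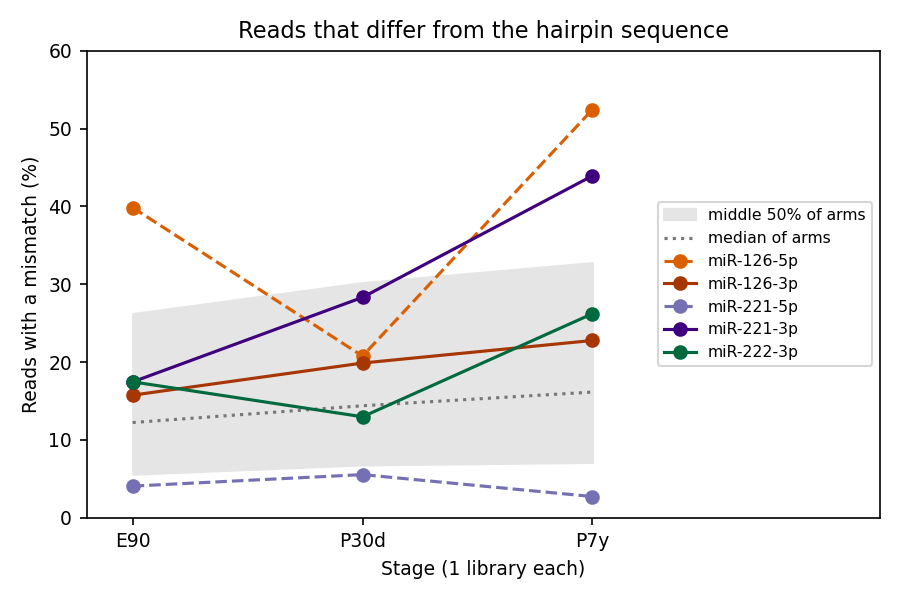
Share of an arm's reads (%) that differ from the hairpin sequence at E90, P30d and P7y (1 library each) for the 5 arms past the filter; the grey band spans the middle 50% of 205 arms and the dotted line is their median. miR-126-5p is above the band at E90 (39.9%) and P7y (52.4%) and within it at P30d (20.8%), and miR-221-5p is below the band throughout.

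Other miRNAs had similar courses over the 3 libraries. Likeness was the larger of the absolute differences in the log2 ratios P30d over E90 and P7y over P30d, searched over 175 other arms with a mean of 100 CPM or more, with 3 points per arm. The arm most like miR-126-5p was miR-378-3p (difference 0.23), with 265 CPM at E90, 688 CPM at P30d and 362 CPM at P7y, followed by miR-199a-3p (0.58) and miR-30e-3p (0.60). The arm most like miR-126-3p was miR-146b-5p (0.05), with 203, 125 and 191 CPM, followed by miR-143-5p (0.14) and miR-99a-5p (0.38). For miR-221-3p it was miR-381-3p (0.20), with 350, 168 and 41.9 CPM, followed by miR-363-3p (0.29) and miR-204-5p (0.42). miR-222-3p had no arm as close, with miR-425-5p (0.82) at 204, 660 and 36.6 CPM, miR-15b-5p (1.08) and miR-2320-5p (1.36).

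Other miRNAs linked to endothelium and vessel growth were counted as a list of 22 hairpins, each of which had a read, with 27 arms past the filter. The summed level of the list was 105003 CPM at E90, 92220.7 CPM at P30d and 130492 CPM at P7y. For P30d over E90, 7 of the 27 arms were called higher and 9 lower, with a median log2 ratio of -0.29. For P7y over P30d, 4 were called higher and 17 lower, with a median of -1.49, and for P7y over E90, 4 higher and 12 lower, with a median of -0.68. The medians of all 325 arms were -0.11, -1.34 and -1.09. Of all 325 arms, 33.2% were called higher and 34.8% lower for P30d over E90. The shares were 13.8% and 55.4% for P7y over P30d, and 12.6% and 51.1% for P7y over E90. The counts of the list were near these shares.

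The most abundant arms of that list went separate ways. miR-100-5p, which represses the growth regulator MTOR in human and mouse endothelium, had 26524 CPM at E90, 18025 CPM at P30d and 44804 CPM at P7y. miR-10a-5p, known in human endothelium for restraining inflammatory signalling, had 10527, 9152 and 39416 CPM at these stages. miR-27b-3p, of a cluster that promotes vessel sprouting in mouse and zebrafish, had 16288, 25661 and 10613 CPM. miR-92a-3p, an inhibitor of vessel growth in mouse, had 14800, 10772 and 9267 CPM.

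Whole liver holds other cells, and in such tissue fewer cells of a type and less RNA per cell cannot be told apart. The hepatocyte list (6 arms past the filter) summed to 237617 CPM at E90, 324766 CPM at P30d and 192786 CPM at P7y, with no single arm in the lead throughout. miR-122-5p, the miRNA that defines hepatocytes, had 128017, 213802 and 37870 CPM, and miR-192-5p, the most abundant arm of the list at P7y, had 109467, 109310 and 154836 CPM. miR-194a-5p, an abundant arm that the tables name apart from miR-194 and that is not in this sum, had 27936, 14577 and 15262 CPM. The smooth muscle list (4 arms) summed to 52852, 19732 and 108377 CPM, most of it miR-143-3p with 51124, 17730 and 102623 CPM. This sum was lowest at P30d, as were miR-126-3p and the sum of the endothelial list. In contrast, miR-145-3p of the smooth muscle list was lowest at E90, with 409, 869 and 940 CPM. The mesenchymal and stellate list (5 arms) summed to 7288.5, 48163.5 and 6298 CPM, led by miR-199a-5p with 3349, 40212 and 2539 CPM. By CPM its sum was highest at P30d, as were miR-222-3p and the hepatocyte and leukocyte sums. Unlike miR-222-3p, this sum was at similar levels at E90 and P7y by CPM. TMM, which raised P7y by 1.01 against E90, would place it higher at P7y than at E90.

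Blood and bile duct markers moved as well. The erythroid list (4 arms) summed to 7242 CPM at E90, 3034 CPM at P30d and 1821 CPM at P7y, led by miR-451-5p with 3941, 1339 and 1223 CPM. The log2 ratio of miR-451-5p for P7y over P30d was -0.13, smaller in size than the 1.07 by which TMM raised P7y, so the order of these stages turns with the scaling for this arm. miR-486-5p was similar, with 1147, 445 and 406 CPM (-0.14). The miR-144 arms were not. miR-144-3p had 978, 1195 and 123 CPM, a log2 ratio of -3.27 for P7y over P30d, larger in size than that shift. miR-144-5p had 1168, 54.7 and 66.9 CPM (0.29). The cholangiocyte and epithelial list (4 arms) summed to 760, 360 and 224 CPM, and miR-200b-3p, its most abundant arm by mean, had 613, 115 and 178 CPM. Its arms were split for P30d over E90, with 2 called higher, miR-200a-3p (1.12) and miR-141-3p (1.26), and 2 called lower. The leukocyte list (5 arms) summed to 980, 3447 and 946 CPM, led by miR-142-5p with 374, 2956 and 609 CPM. Its arms did not move together. The partner arm miR-142-3p had 195, 190 and 105 CPM, miR-155-5p had 90.3, 132 and 44.8 CPM, and miR-150-5p had 5.95, 118 and 103 CPM. miR-223-3p, which like miR-126 and miR-221 is also held by platelets, had 296 CPM at E90, 50.2 CPM at P30d and 83.1 CPM at P7y. By CPM the hepatocyte, erythroid and cholangiocyte sums were lower at P7y than at P30d, but by less than the 1.07 by which TMM raised P7y. The same holds for miR-92a-3p of the endothelial list (-0.22). Their order at these stages thus also turns with the scaling. No list was at 0 in any library, and the part of these cells in the values of miR-126, miR-221 and miR-222 was not tested.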

How the data were processed

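Small RNA libraries of liver, 1 per stage, were grouped by the age in their labels. Each deposited table has a row for each hairpin arm. Per the file headers, the reads were mapped by the authors to miRBase hairpins of pig and other mammals, dividing a read among the hairpins it matches, so the deposited reads per arm are expected counts. The deposited copies of each representative read are counts. The submitters' processing notes name the build Sscrofa10.2. No aligner, adapter trimming or miRBase release is given in the sources used here. Genome sequence was not used.

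Expected counts of named hairpins (all groups but predicted ones) were summed per arm without species prefix or copy number and rounded. Of 1007 names, 14 were merged by a shared representative read, a rule chosen after the tables were seen, which left 991 arms with a read and did not touch the members. CPM used the reads of named hairpins as total. A count of 3 reads, the limit that a count of 0 allows, was 0.325 CPM at E90, 0.828 CPM at P30d and 0.302 CPM at P7y. Log2 ratios have exact conditional binomial intervals, levels exact Poisson intervals and shares Clopper-Pearson intervals. To take arm balances as log2 ratios, 0.5 was added to the reads of either arm. No p-values were computed, since 1 library per stage leaves no residual spread.

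The miRNAs named beside the members were the 3 most alike arms of miR-126-5p, miR-126-3p, miR-221-3p and miR-222-3p, the 4 most abundant arms of the endothelial list and the most abundant arm of each cell type list. Further arms were added after their values were seen. miR-223-3p was chosen for its place in platelets. The others, to show how the lists divide, were miR-192-5p, miR-194a-5p, miR-145-3p, miR-200a-3p, miR-141-3p, miR-486-5p, miR-144-3p, miR-144-5p, miR-142-3p, miR-155-5p and miR-150-5p. The endothelial list was miR-10a, miR-10b, miR-17, miR-18a, miR-19a, miR-19b, miR-20a, miR-92a, miR-23a, miR-23b, miR-24, miR-27a, miR-27b, miR-100, miR-130a, miR-132, miR-210, miR-218, miR-296, miR-424, miR-503 and let-7f. The hepatocyte list was miR-122, miR-192 and miR-194, smooth muscle miR-143 and miR-145, mesenchymal and stellate miR-199a, miR-199b and miR-214, leukocyte miR-142, miR-150, miR-155 and miR-223, erythroid miR-144, miR-451 and miR-486, and cholangiocyte and epithelial miR-141, miR-200a, miR-200b, miR-200c and miR-429. Members and lists were chosen with earlier results of these data known.

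The alternatives were TMM factors (edgeR 4.0.16) and median-of-ratios size factors (DESeq2 1.42.0), both used for scaling only, a total without the 5 most abundant arms of any library, reads without a mismatch, the representative read only, known pig hairpins only, nothing added to arms, no filter, and a filter at 100 CPM. Software was R 4.3.3 and Python 3.11.15 with SciPy 1.17.1, NumPy 2.4.6, pandas 2.3.3, Biopython 1.88 and matplotlib 3.10.9.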

Additional observations from a re-analysis of the deposited data

How the results depend on the processing

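Counts of arms called higher and lower moved with the filter and the scaling, over 325 arms as reported and under each scaling, 991 without a filter and 176 at 100 CPM. For P30d over E90 they were 193 and 199 without a filter and 58 and 56 at 100 CPM. For P7y over P30d they were 92 and 109 by TMM, 91 and 112 by median-of-ratios size factors, 69 and 342 without a filter and 28 and 92 at 100 CPM. For P7y over E90 they were 90 and 109 by TMM, 91 and 109 by median-of-ratios size factors, 91 and 344 without a filter and 21 and 82 at 100 CPM. A filter changes the number of arms compared. Names left unmerged, an alternative chosen after seeing the data, kept all 6 of these counts within 1.5 times. Of the members, 1 was called higher and 1 lower for P7y over P30d under both TMM and median-of-ratios size factors. For P7y over E90, 1 was called higher and 2 lower under both. With the 5 most abundant arms left out of the total, 1 was called higher and 3 lower for P7y over E90, against 55 and 148 of the 325 arms. The scalings turned the direction of miR-126-5p (0.31 by TMM, 0.25 by median-of-ratios size factors) and miR-221-5p (0.081, 0.024) for P7y over P30d, and of miR-126-3p for P7y over E90 (0.90, 0.94, and 0.21 without the 5 most abundant arms). The log2 balance of miR-126-5p over miR-126-3p, -3.01 at E90, -0.74 at P30d and -2.07 at P7y, became -3.50 at E90 and -2.76 at P7y in reads without a mismatch. In representative reads alone it became -2.51 at E90, 0.23 at P30d, where the direction turned, and -1.46 at P7y. This count leaves out all other reads of each arm. At P30d the representative read held 71.9% of the miR-126-5p reads and 36.8% of the miR-126-3p reads. Why these shares differ was not tested. The log2 ratio of miR-221-3p over miR-222-3p, 2.94 at E90, 0.80 at P30d and 3.57 at P7y, became 0.52 at P30d and 3.18 at P7y in reads without a mismatch, and 3.27, 0.63 and 3.15 in representative reads at E90, P30d and P7y. Both balances kept their order of stages in all of these alternatives except the miR-221-3p ratio in representative reads, where E90 was above P7y. miR-222-3p was called lower at P7y than at P30d, and miR-221-3p and miR-222-3p lower at P7y than at E90, under every alternative run. Known pig hairpins alone brought miR-221-5p past the threshold for P7y over P30d (-1.03). No paired analysis was possible because each stage has 1 library, which also leaves no replicate to leave out. Depth limits miR-222-5p, with 11 reads at P30d and at P7y.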
